A study of Mus musculus with 15 samples.

Results

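The transcription factor genes Zic1, Neurod4, Neurog2, Scrt2, Msx3, Hes3, Olig2, Sox1, Sox2 and Pax6, known from the developing neural tube, were followed through RNA-seq profiles of the mouse aorta-gonad-mesonephros (AGM) region. They were chosen by name, with earlier results of these data known. Each matched 1 row of the deposited table, and together they are 10 of its 28876 genes. The study profiled the subdissected AGM region, the site in the embryo where hematopoietic stem cells mature, to learn how its tissues differ in position and stage. Reads were counted per gene and given as RPM (reads-per-million, on the total assigned to genes).

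The 15 libraries fall into 5 groups of 3, all from C57BL/6 embryos for which no treatment, transgene or mutation is named. E9 AoD and E9 AoV are the dorsal and ventral domains of the dorsal aorta with their surrounding tissue at E9.5 (embryonic days after mating). E10 AoD, E10 AoV and E10 UGR are the dorsal domain, the ventral domain and the urogenital ridges at E10.5. Each library is a pool of hand-dissected tissue from 15 to 34 embryos, made in 3 separate experiments, so a library averages over embryos and over all cell types that the dissection included. No urogenital ridge was separated at E9.5.

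The neural tube is the embryonic source of the brain and spinal cord and lies just dorsal to the notochord and aorta. Its dividing progenitors carry SoxB1 factors, take on dorsal or ventral identities in response to signals from the roof plate and floor plate, and leave the cycle as neurons when proneural factors are switched on. Roof and floor signals thereby set which of the homeobox, zinc finger and basic helix-loop-helix (bHLH) factors a progenitor expresses.

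All 10 genes were highest in E9 AoD, where every E9 AoD library lay above every library of E9 AoV, E10 AoV and E10 UGR. Such separation is common, and in 51.3% of tested genes the E9 AoD and E9 AoV libraries did not overlap, in either direction. The share of genes in which E9 AoD lay above all of these groups at once was not counted. At E10.5, 8 of the 10 were still higher in the dorsal than in the ventral tissue by the rule given below, against 4.29% of tested genes. In the dorsal tissue 9 had fallen with stage by that rule, against 4% of tested genes. Zic1 kept 51.2% of its E9 AoD mean, a fall that missed the 2-fold threshold. Msx3 and Hes3 had fallen to 3 reads or fewer in every E10 AoD library. In these pools of bulk tissue, fewer cells of a type and less RNA per cell cannot be told apart.

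Library depth, worked out from the value of a single read, was 33.71 to 48.58 megareads. The detection limit was taken as 3 reads, worth 0.0617 to 0.089 RPM, which is not a strict upper bound for an observed count of 0. These limits cover counting error only, because reads of amplified libraries are not independent molecules. Transcripts of the labelled tissues were present, though endothelial ones did not set the aorta groups apart. The 10 endothelial genes (Pecam1, Cdh5, Kdr and others) were detected in all 15 libraries. They summed to 364.3 to 488.9 RPM in E9 AoD and 721.1 to 766.4 RPM in E9 AoV. E10 AoD had 722.2 to 789.0 RPM, E10 AoV 763.9 to 819.3 RPM and E10 UGR 581.7 to 624.9 RPM. E9 AoD was thus the lowest group, below the urogenital ridges. The 12 urogenital ridge genes (Pax2, Wt1, Osr1 and others) summed to 840.2 to 878.3 RPM in E10 UGR against 76.84 to 437.0 RPM in the other groups. Not all 12 were highest in E10 UGR. In E10 AoV over E10 UGR 8 were called lower, 1 higher and 3 neither. Osr1 had 16.9, 14.3 and 16.1 RPM in E10 UGR and 19.6, 19.1 and 19.9 RPM in E10 AoV. Dorsal libraries were also rich in somite transcripts, whose 15 genes summed to 589.3 to 1000 RPM in AoD and to 110.0 to 310.1 RPM elsewhere. Ventral libraries at E9.5 were rich in gut and liver endoderm transcripts. The 12 genes of that list summed to 785.9 to 1044 RPM in E9 AoV and 83.87 to 116.1 RPM in E9 AoD. At E10.5 they summed to 278.5 to 303.5 RPM in E10 AoV, 50.12 to 58.38 RPM in E10 AoD and 287.2 to 292.4 RPM in E10 UGR. Most of the E10 AoV sum was Gata4, at 216, 236 and 248 RPM there and at 92.8, 103 and 91.1 RPM in E9 AoV. The part of somite and endoderm content in the differences given below was not tested. Tissue labels do not mention the neural tube, and the levels below describe what the dissected pieces contained.

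Of the 10 genes, 9 were found by identifier in a GENCODE annotation of NCBIM37, the build to which the reads were aligned. Zic1 lies on chr9:91252896-91260648, minus strand, and 60 of its exon bases (1.1%) overlap exons of Zic4 on the opposite strand. Pax6 lies on chr2:105509053-105543317, plus strand, and 5542 of its exon bases (27.9%) overlap exons of Elp4, again on the opposite strand. Whether the counting used strand is not given in the sources used here, so reads from these overlaps cannot be told apart and the level of Pax6 in particular is uncertain where it is low. Sox2, on chr3:34548927-34551383, sits inside an intron of the non-coding Sox2ot on the same strand, with no exon base in common. Neurog2 (chr3:127336054-127338549), Scrt2 (chr2:151907265-151921538) and Olig2 (chr16:91225795-91228922) are on the plus strand, and Neurod4 (chr10:129705209-129717296), Msx3 (chr7:147232056-147235039) and Hes3 (chr4:151660081-151665771) on the minus strand, without another annotated gene over them. Sox1 was not found under its identifier in the annotation used and is given without a position.

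Promoter sequence is shown for Msx3 and Olig2, a dorsal and a ventral progenitor factor that were both dorsal in these tissues and lost with stage, and for Neurog2, the proneural factor. The 200 bases before the transcription start were taken from RefSeq on GRCm38.p6, a later build than that of the reads, at chr7:140049089-140049288 (minus strand), chr16:91225350-91225549 (plus strand) and chr3:127632936-127633135 (plus strand). Capitals mark the SOX-type letters ACAATG on either strand.
Msx3: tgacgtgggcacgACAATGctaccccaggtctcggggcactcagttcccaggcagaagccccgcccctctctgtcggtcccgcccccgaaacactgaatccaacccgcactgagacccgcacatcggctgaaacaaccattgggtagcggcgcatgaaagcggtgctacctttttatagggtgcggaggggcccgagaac
Olig2: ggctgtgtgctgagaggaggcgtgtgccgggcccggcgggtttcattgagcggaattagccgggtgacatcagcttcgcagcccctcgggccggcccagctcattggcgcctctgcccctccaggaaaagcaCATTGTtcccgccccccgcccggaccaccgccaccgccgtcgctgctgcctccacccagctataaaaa
Neurog2: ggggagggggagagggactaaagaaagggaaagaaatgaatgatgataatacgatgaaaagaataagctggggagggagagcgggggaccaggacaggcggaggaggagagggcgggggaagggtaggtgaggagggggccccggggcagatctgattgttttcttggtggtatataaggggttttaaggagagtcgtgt
RefSeq entries were matched for 8 of the 10 genes (not for Scrt2 and Hes3). ACAATG or its reverse complement CATTGT stood in the windows of 2 of these 8 genes and in 8.6% of 32851 promoter windows of the same length, and ACAAAG or CTTTGT in 1 of 8 (Pax6, at the second of its starts) and 13.3% of windows. The E-box letters CAGCTG, and CAGATG with its complement CATCTG, which bHLH factors bind, were in none of the 8 genes' windows, against 10.9% and 11.6% of all windows. These counts describe letters in a short window and say nothing about binding.

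**Figure D1:**
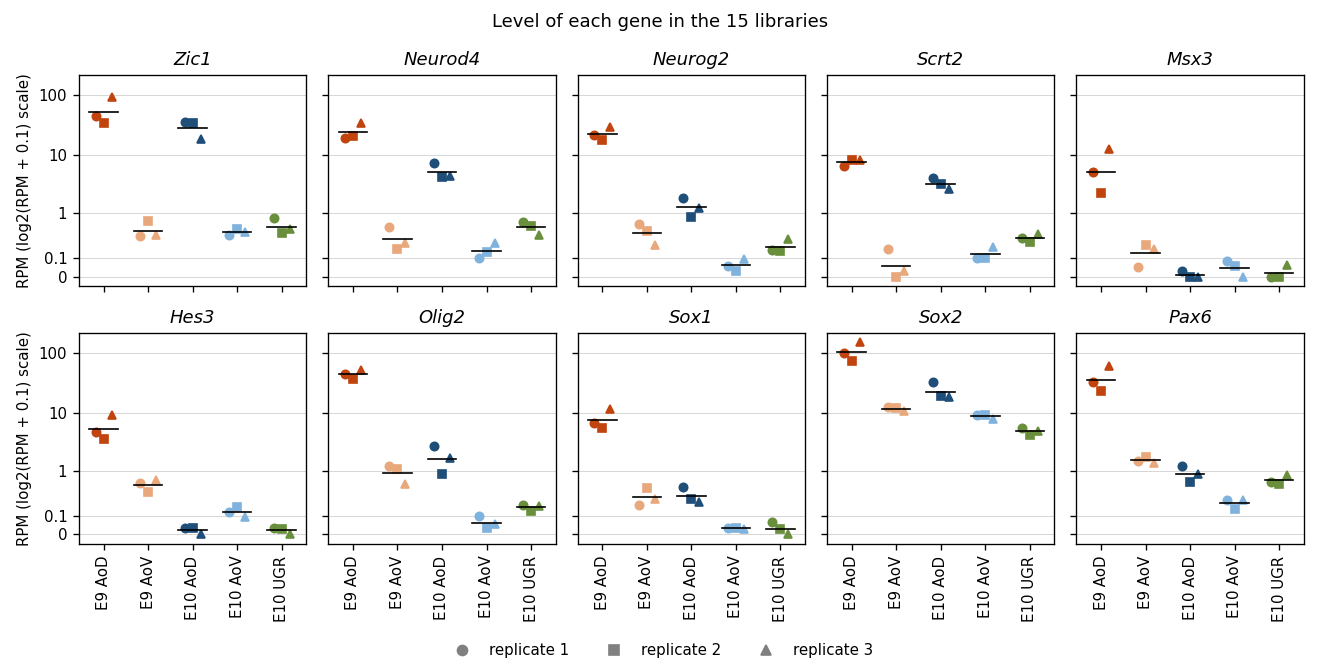
Level of each of the 10 genes in the 15 libraries, in RPM on a log2(RPM + 0.1) axis, with the 5 groups on the horizontal axis, 1 point per library (circle, square and triangle for replicates 1, 2 and 3) and a bar at the group mean on that scale. E9 AoD is the highest group in every panel, and the E10 AoD points of Msx3 and Hes3 lie at or near 0.

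Dorsal and ventral tissue at E9.5 differed in all 10 genes, each of them higher in E9 AoD. With limma on log2(RPM + 0.1), 10 of 10 were called higher (Benjamini-Hochberg adjusted p below 0.05 and a fold of at least 2), against 3.47% of the 18553 genes tested, and all 10 had ranges that did not overlap, against 51.3% of genes. Zic1, Neurod4 and Scrt2 had the largest fold changes of all tested genes, in that order, with Neurog2 and Olig2 in the fourth and the fifth place. Several of these genes were already known from earlier work on these data to lead this comparison. The ranks, and the counts of called genes beside the shares over all genes, are therefore a description.

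The progenitor factors were higher in every E9 AoD library than in any E9 AoV library. Sox2, a SoxB1 factor that holds neural progenitors undifferentiated and is also made in anterior gut endoderm and germ cells, stood at 100, 73.3 and 149 RPM in the E9 AoD libraries and at 12.7, 11.9 and 10.7 RPM in E9 AoV. Sox1, the SoxB1 factor most restricted to neural cells, measured 6.93, 5.64 and 11.7 RPM in E9 AoD and 0.206, 0.488 and 0.286 RPM in E9 AoV. Both were several times higher in every dorsal library, and Sox2 alone among the 10 genes exceeded 10 RPM in the ventral tissue. Hes3, a bHLH repressor of neuronal differentiation, had 4.79, 3.65 and 9.24 RPM in E9 AoD and 0.593, 0.394 and 0.689 RPM in E9 AoV. The ratio of group means was 9.13-fold for Sox2, 24.8-fold for Sox1 and 10.6-fold for Hes3, and the log2 fold changes were 3.12 ± 0.23 (SE, limma, n = 3 per group) for Sox2, 4.25 ± 0.31 for Sox1 and 3.10 ± 0.29 for Hes3.

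Factors that give progenitors a dorsal or a ventral identity were dorsal in the same libraries. Zic1, a zinc finger factor of the dorsal neural tube that somites also express, rose from 0.365, 0.740 and 0.380 RPM in E9 AoV to 44.3, 34.1 and 93.4 RPM in E9 AoD. Msx3, a homeobox gene of the dorsal neural tube, was read at 5.14, 2.26 and 12.8 RPM dorsally and at 0.0456, 0.232 and 0.190 RPM ventrally, where 1 library held no more than 3 reads. Neither gene's groups overlapped, although the E9 AoD libraries of Msx3 spread more widely (CV 80.9%) than those of any other of the 10 genes. Pax6, a paired-box factor of intermediate and ventral progenitors, was at 32.2, 23.4 and 60.3 RPM in E9 AoD and at 1.55, 1.81 and 1.40 RPM in E9 AoV. Olig2, the bHLH factor of motor neuron progenitors in the ventral tube, was at 43.9, 36.8 and 51.4 RPM in E9 AoD and at 1.23, 1.11 and 0.570 RPM in E9 AoV. Genes of the dorsal tube and of the ventral tube were present together in the dorsal piece. The ratio of means was 116-fold for Zic1, 43.2-fold for Msx3, 24.3-fold for Pax6 and 45.4-fold for Olig2, and the limma log2 fold changes ran from 4.41 ± 0.30 (Pax6) to 6.51 ± 0.35 (Zic1). Without E9 AoD replicate 3 the ratio for Msx3 was 23.7-fold.

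The neurogenic factors showed the same order of tissues. Neurog2, a proneural bHLH factor that commits progenitors to the neuronal fate, had 21.5, 18.2 and 29.8 RPM in E9 AoD and 0.638, 0.464 and 0.238 RPM in E9 AoV. Neurod4, a bHLH factor that acts after the proneural step, was found at 19.2, 21.0 and 33.9 RPM in E9 AoD and 0.570, 0.186 and 0.261 RPM in E9 AoV. Scrt2, a Snail-related zinc finger repressor made by newborn neurons, had 6.71, 8.44 and 8.44 RPM in E9 AoD and 0.182, 0 and 0.0238 RPM in E9 AoV, the last 2 libraries at or below 3 reads. Scrt2 had the tightest E9 AoD libraries of the 10 (CV 12.7%). Ratios of means were 51.9-fold for Neurog2, 72.9-fold for Neurod4 and 115-fold for Scrt2, with log2 fold changes of 5.45 ± 0.32, 5.87 ± 0.33 and 5.71 ± 0.32. The ratio for Scrt2 rests on few reads in E9 AoV, and was at least 110-fold without replicate 1 of that group, which leaves 2 libraries at or below 3 reads, and 76.4-fold without replicate 2. For Neurod4 it was 110.5-fold without E9 AoV replicate 1. Across the 10 genes the adjusted p lay between 3.06e-09 (Zic1) and 2.47e-06 (Msx3). With quantile normalization the split of called genes over the whole table moved from 643 higher and 1544 lower to 820 higher and 1200 lower, and all 10 genes stayed called.

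Levels of different genes can be compared only per length of exon. On the scale of RPM per kilobase, E9 AoD had 43.7 ± 15.6 (SD, n = 3) of Sox2 and 18.1 ± 3.0 of Olig2, then 10.4 ± 2.69 of Neurog2, 10.1 ± 5.57 of Zic1 and 7.39 ± 2.4 of Neurod4, which did not differ beyond their spread. Hes3, Msx3, Scrt2 and Pax6 followed at 3.12 ± 1.56, 2.80 ± 2.26, 2.32 ± 0.294 and 1.95 ± 0.972, again without a difference beyond the spread. The exons of Pax6 in the annotation add up to 19833 bases over all its transcripts, which lowers its value on this scale. In all 5 groups Sox2 was first on this scale among the 9 genes with a length.

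**Figure D2:**
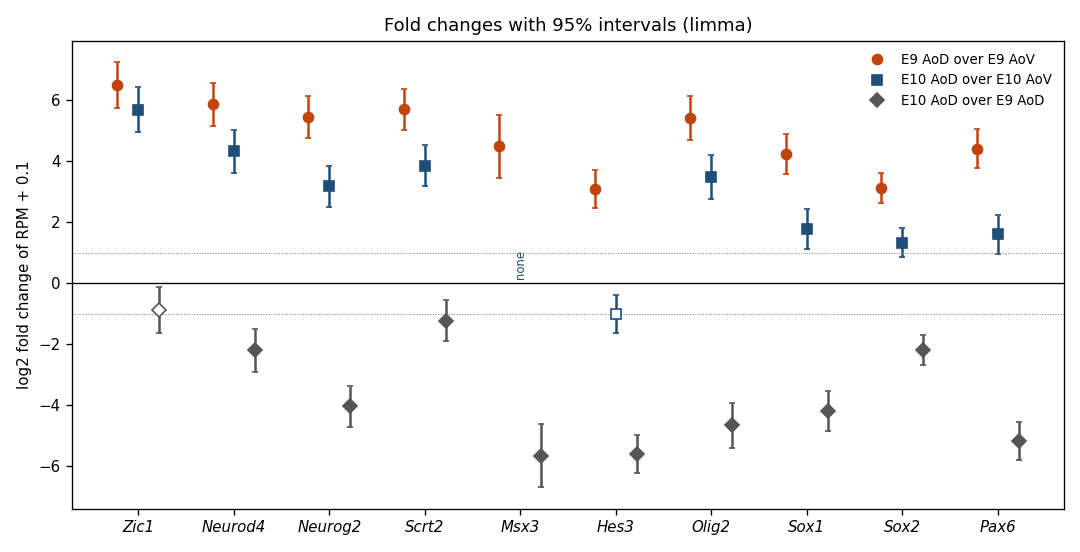
Log2 fold change of RPM + 0.1 for each gene in 3 comparisons, with 95% intervals from limma, filled where called and open where not, and dotted lines at a fold of 2. All E9 AoD over E9 AoV values lie above 3, the E10 AoD over E9 AoD values lie below 0, and no fold is drawn for Msx3 at E10.5, where dorsal and ventral libraries were all at or below 3 reads. Sizes for groups near 0 depend on the added 0.1 RPM.

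At E10.5 the dorsal tissue was still higher than the ventral in 8 of the 10 genes, against 4.29% of tested genes called higher, and Msx3 and Hes3 were the exceptions. Zic1 had 35.4, 33.8 and 18.7 RPM in E10 AoD and 0.389, 0.512 and 0.442 RPM in E10 AoV, a ratio of means of 65.5-fold. Neurod4 followed with 7.28, 4.27 and 4.47 RPM against 0.104, 0.153 and 0.256 RPM, or 31.2-fold. Scrt2 measured 4.19, 3.22 and 2.65 RPM dorsally and 0.104, 0.102 and 0.210 RPM ventrally, or 24.2-fold. The limma log2 fold changes of Zic1, Neurod4 and Scrt2 were 5.70 ± 0.35, 4.32 ± 0.33 and 3.86 ± 0.32 (adjusted p = 9.93e-09, 8.74e-08 and 1.81e-07).

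The other genes called were low in E10 AoD, apart from Sox2. Sox2 was at 32.4, 19.0 and 18.6 RPM in E10 AoD and at 9.31, 9.36 and 7.99 RPM in E10 AoV, a ratio of 2.63-fold (log2 1.34 ± 0.23, limma adjusted p = 0.000276). Olig2 stood at 2.82, 0.878 and 1.73 RPM against 0.104, 0.0256 and 0.0466 RPM, and Neurog2 at 1.92, 0.878 and 1.28 RPM against 0.0519, 0.0256 and 0.0931 RPM. For each of these last 2 genes, 2 of the 3 E10 AoV libraries were at or below 3 reads. Pax6 was at 1.26, 0.630 and 0.897 RPM in E10 AoD and at 0.264, 0.159 and 0.274 RPM in E10 AoV, which is 4.0-fold (limma adjusted p = 0.000564). Sox1 was at 0.513, 0.277 and 0.237 RPM in E10 AoD and no higher than 3 reads in any E10 AoV library, so at least 4.40-fold higher dorsally. The calls of Sox1 and Pax6 were lost when 1 RPM was added in place of 0.1 RPM (log2 fold changes 0.38 and 0.63).

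Hes3 ran the other way at E10.5. It was at 0.0256, 0.0251 and 0 RPM in E10 AoD, at or below 3 reads in each library, and at 0.130, 0.179 and 0.0931 RPM in E10 AoV. The ranges did not overlap, the log2 fold change was -0.99 (limma adjusted p = 0.0152) and just missed a fold of 2, so Hes3 was not called. It passed without E10 AoD replicate 1 (log2 fold change -1.05), without E10 AoD replicate 2 (-1.05) or without E10 AoV replicate 3 (-1.12). Msx3 was at 0.0256, 0 and 0 RPM in E10 AoD and at 0.0778, 0.0512 and 0 RPM in E10 AoV, all at or below 3 reads, and a difference was not detectable at this depth.

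Most of these transcripts fell in the dorsal tissue as the embryo aged. In E10 AoD over E9 AoD 9 of the 10 genes were called lower, against 4% of tested genes, and none higher, against 8.6%. Pax6 kept 2.4% of its E9 AoD mean, Olig2 4.11%, Sox1 4.23% and Neurog2 5.87%. Msx3 and Hes3, at or below 3 reads in all 3 E10 AoD libraries, fell at least 87.7-fold (at least 48.2-fold without E9 AoD replicate 3) and at least 76.8-fold. Sox2 and Neurod4 kept more, 21.7% and 21.6%, and Scrt2 and Zic1 the most, 42.6% and 51.2%. The libraries of the 2 stages overlapped for Zic1 and for none of the other 9 genes, where 60.7% of all tested genes did not overlap.

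**Figure D3:**
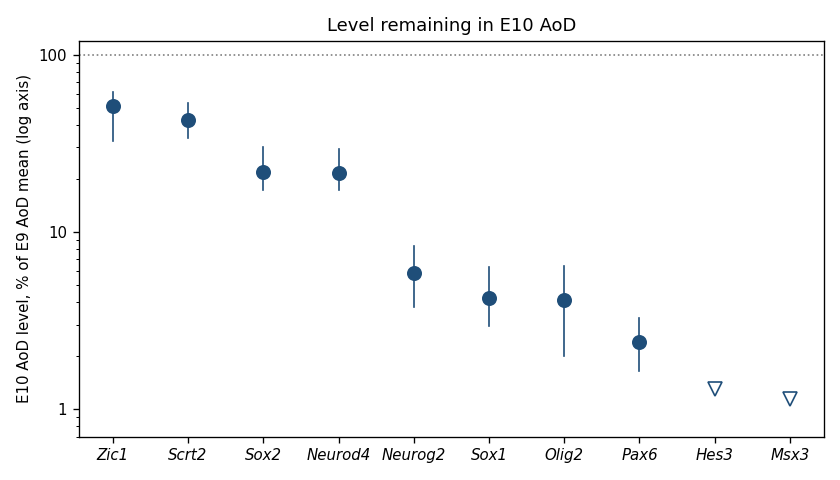
Mean level in E10 AoD as a percentage of the E9 AoD mean, on a log axis, with lines from the lowest to the highest of the 3 E10 AoD libraries. Open triangles for Hes3 and Msx3 are upper limits at 3 reads, and the 8 points run from 51.2% for Zic1 to 2.4% for Pax6.

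In the fit the fall was largest where a ratio can be given for Pax6 (log2 fold change -5.17 ± 0.30, limma adjusted p = 3.96e-09), Olig2 (-4.66 ± 0.34), Sox1 (-4.19 ± 0.31) and Neurog2 (-4.03 ± 0.32). It was smaller for Sox2 (-2.19 ± 0.23) and Neurod4 (-2.18 ± 0.33), and smallest among those called for Scrt2 (-1.22 ± 0.32, adjusted p = 0.00406). Genes of the dorsal tube stood at either end, Msx3 falling at least 87.7-fold and Zic1 1.96-fold on the ratio of means, and the ventral Olig2 lay between them at 24.3-fold. Zic1 had a log2 fold change of -0.88 ± 0.35 (adjusted p = 0.0427) with overlapping ranges and was not called. It was called without E9 AoD replicate 2 (log2 fold change -1.19), without E10 AoD replicate 1 (-1.05) or without E10 AoD replicate 2 (-1.01).

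The ventral tissue also changed with stage, at far lower levels. E10 AoV was called lower than E9 AoV in Neurog2, Hes3, Olig2, Sox1 and Pax6, 5 of 10 genes against 4.99% of tested genes. Pax6 fell from a mean of 1.59 to 0.232 RPM (6.83-fold), Olig2 from 0.970 to 0.0587 RPM (16.5-fold) and Neurog2 from 0.447 to 0.0569 RPM (7.86-fold). For the last 2 genes 2 of the 3 E10 AoV libraries were at or below 3 reads, and the fall was at least 12.6-fold for Olig2 without E10 AoV replicate 1 and at least 5.745-fold for Neurog2 without E10 AoV replicate 3, where both remaining libraries were that low. Hes3 fell 4.17-fold, and Sox1 at least 4.20-fold, to 3 reads or fewer in each E10 AoV library. Of these 5, Pax6 kept its call when 1 RPM was added in place of 0.1 RPM and the others did not. Sox2 went from 11.8 ± 1.01 to 8.89 ± 0.777 RPM (SD, n = 3) without overlap and was not called (adjusted p = 0.167), while 9 of the 12 gut and liver endoderm genes were called lower in the same comparison. Scrt2, with 2 of its E9 AoV libraries at or below 3 reads, was called higher in E10 AoV only when E9 AoV replicate 1 was left out (log2 fold change 1.07).

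On the log2(RPM + 0.1) scale the change with stage differed between dorsal and ventral tissue in 9 of the 10 genes. In the interaction, the stage change of AoV minus that of AoD, these 9 were positive and called, against 4.12% of tested genes called in that direction. For all of these 9 but Sox2, a ventral fall to no reads would still have been smaller on this scale than the dorsal fall. Their positive sign was thus fixed by the low ventral start and does not show that ventral tissue changed less. The difference was 2.81 ± 0.42 in Pax6 (log2, limma adjusted p = 0.000148), 2.28 ± 0.45 in Neurog2 (adjusted p = 0.00135) and 1.79 ± 0.32 in Sox2 (adjusted p = 7e-04). For Olig2 it was 1.93 ± 0.48 and ran from 1.199 to 3.17 over 24 alternatives, and adding 0.03 RPM in place of 0.1 RPM took the call away (adjusted p = 0.136). On ratios of means Olig2 fell 24.3-fold dorsally and 16.5-fold ventrally. In Scrt2, at 1.85, the dorsal change was -1.22 and the ventral change 0.62, the latter not called. Neurod4, at 1.55 ± 0.47 (adjusted p = 0.0218), kept its call in 16 of 24 alternatives, and leaving out any of 6 libraries (E9 AoD replicate 3, E9 AoV replicates 2 and 3, E10 AoD replicates 2 and 3, E10 AoV replicate 3) ended it, with values of 1.29 to 1.45. Zic1 was at 0.81 ± 0.50 (adjusted p = 0.257) and was not called.

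Urogenital ridges held little of these transcripts, and 7 of the 10 genes were higher in E10 AoD than in E10 UGR, against 4.76% of tested genes. In E10 UGR, Zic1 had 0.830, 0.432 and 0.507 RPM and Neurod4 0.711, 0.596 and 0.394 RPM, so that E10 AoD exceeded it 49.7-fold and 9.42-fold. Scrt2 at 0.326, 0.267 and 0.406 RPM and Sox2 at 5.66, 4.26 and 5.04 RPM were exceeded 10.1-fold and 4.68-fold. Pax6 was at 0.639, 0.579 and 0.840 RPM, a range that overlapped that of E10 AoD (adjusted p = 0.382). Olig2 at 0.207, 0.144 and 0.197 RPM and Neurog2 at 0.178, 0.164 and 0.310 RPM were exceeded 9.90-fold and 6.25-fold. E10 UGR libraries held 3 reads or fewer of Msx3, Hes3 and Sox1, so E10 AoD exceeded it at least 3.85-fold in Sox1. With 1 RPM added, the calls of Neurog2 (log2 fold change 0.93) and Sox1 (0.38) were lost.

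Ventral tissue at E10.5 was lower than the urogenital ridges in Neurod4, Neurog2 and Pax6 (3 of 10 genes, against 3.73% of tested genes). The E10 UGR mean was 332% of the E10 AoV mean for Neurod4, 382% for Neurog2 and 295% for Pax6, all at levels under 1 RPM. The Neurog2 mean of E10 AoV rests on 1 library above 3 reads, and without that library (replicate 3) the ridges were at least 2.795-fold higher. None of these 3 calls held with 1 RPM added. That was the 1 alternative of 18 to end the calls of Neurod4 and Pax6, whereas Neurog2 (log2 fold change -1.01, limma adjusted p = 0.0258) was called in 11 of 18. Its call was also lost without E10 AoV replicate 1 (log2 fold change -0.998), E10 AoV replicate 2 (-0.86) or E10 UGR replicate 3 (-0.81), and with no filter on low values, quantile normalization or median ratio scaling (-1.01, -0.93 and -0.99). Scrt2, at an adjusted p of 0.05, and Olig2, at 0.0727, had ranges that did not overlap in the same direction and were not called. Sox2 exceeded all its E10 UGR values in each E10 AoV library, by 1.78-fold on the means (log2 0.83 ± 0.23, limma adjusted p = 0.013), under the 2-fold threshold.

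The dorsal replicates differed from each other in these genes more than in most. E9 AoD replicate 3 was highest of its group in 9 of the 10 genes, and in Scrt2 it tied with replicate 2, whereas it was highest in 31.6% of all genes of at least 0.5 RPM. The ratio of replicate 3 to replicate 2 had a median of 2.05 over the 10 genes, from 1.0 for Scrt2 to 5.66 for Msx3, beside 0.992 over all genes. Dorsal tube genes showed it most, with a median of 2.53 over 15 roof plate and dorsal progenitor genes, and 10 floor plate and ventral progenitor genes had a median of 1.16. In the same replicate 3 the 12 urogenital ridge genes had a median ratio of 0.401 (11 of 12 lowest there) and the 10 endothelial genes one of 0.762 (10 of 10 lowest). In E10 AoD, replicate 1 was highest in each of the 8 genes above 3 reads, against 40.4% of all genes, and lowest in 10 of the 12 urogenital ridge genes. The part of dissection in these differences was not tested. Without E9 AoD replicate 3, 10 genes were still called over E9 AoV, 9 were still called lower in E10 AoD, and the interaction kept 8 of its 9 calls, Neurod4 losing its own.

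**Figure D4:**
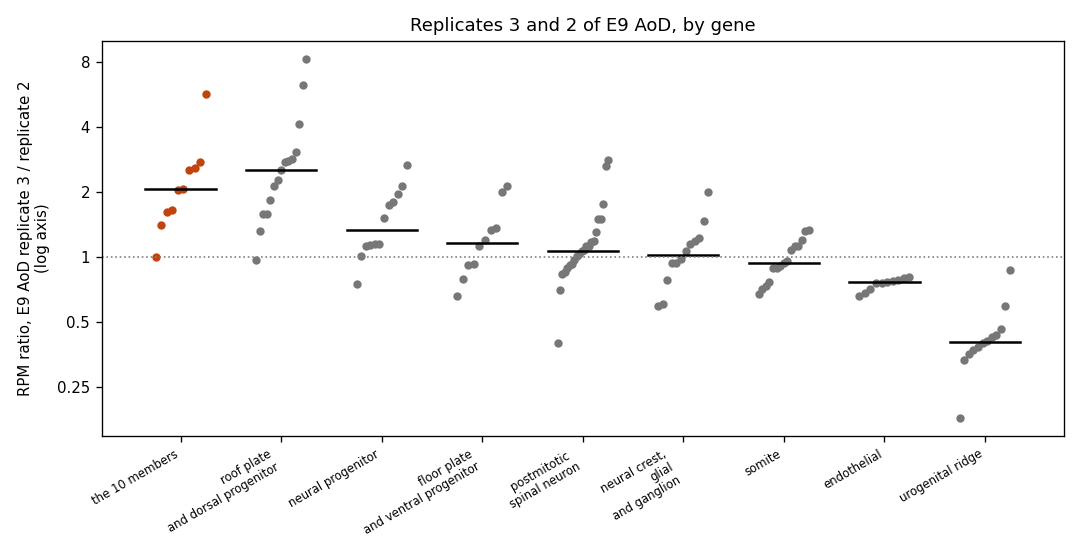
Ratio of RPM in E9 AoD replicate 3 to replicate 2 on a log axis, 1 point per gene, for the 10 genes and 8 lists of tissue genes, with a bar at the median of each and a dotted line at the median of all genes (0.992). The 10 genes and the dorsal tube list lie above 1, and the endothelial and urogenital ridge lists below it.

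Other genes of the neural tube were examined as lists drawn from textbook knowledge, chosen with earlier results of these data known. In E9 AoD over E9 AoV, 11 of 12 neural progenitor genes were called higher, with Hes5, a Notch target, at a log2 fold change of 5.21 ± 0.33, Sox3, the third SoxB1 factor, at 4.25 ± 0.28, and Sox21 at 3.61 ± 0.34. Of the 19 roof plate and dorsal progenitor genes, 17 were tested and 15 were higher, led by the interneuron progenitor factor Dbx1 (5.29 ± 0.46), the roof plate ligand Wnt1 and Pax7, of which Wnt1 was at 3 reads or fewer in E9 AoV. Of 10 floor plate and ventral progenitor genes 7 were higher, including Olig1 (3.68 ± 0.38), Nkx2-9 (3.44 ± 0.26) and Nkx6-1 (2.90 ± 0.25), while Shh, also made by notochord and gut, was at 38.6 ± 4.79 RPM dorsally and 42.1 ± 8.5 RPM ventrally. The median log2 fold change was 2.37, 3.46 and 1.77 in these 3 lists, beside -0.02 over all genes. Of 10 forebrain and midbrain genes 3 reached 0.5 RPM, among them Emx2, which is also on the urogenital list, and the forebrain and midbrain factor Otx2 was at a mean of 0.00897 RPM in E9 AoD.

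With stage, most genes of the progenitor lists were called lower in the dorsal tissue. In E10 AoD over E9 AoD, 7 of 12 neural progenitor genes, 14 of 17 dorsal and 7 of 10 ventral progenitor genes were called lower and 1 of each list higher, with median log2 fold changes of -1.50, -2.86 and -1.49 beside -0.00187 over all genes. Sox3 fell by 4.09, Hes5 by 3.20, Nkx2-9 by 4.19 and Olig1 by 3.27 on the log2 scale, and Shh rose from 38.6 to 117 RPM (log2 1.60 ± 0.14). Among 24 tested genes of postmitotic spinal neurons 10 were lower, 4 higher and 10 not called, with a median of -0.72. The 4 that rose were the sensory and dorsal horn neuron factor Tlx3 (log2 fold change 3.58), the cytoskeletal genes Stmn2 (1.36) and Tubb3 (1.04), and Ebf2 (1.09). No difference between lists was tested. The pan-neuronal RNA-binding gene Elavl3 was at 9.51 ± 2.16 RPM in E9 AoD and 11.6 ± 1.27 RPM in E10 AoD (adjusted p = 0.232), and the motor neuron factors Lhx3 and Mnx1 fell by 1.99 and 1.01. Of 12 neural crest, glial and ganglion genes 8 were called higher and 1 lower (median 1.34).

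**Figure D5:**
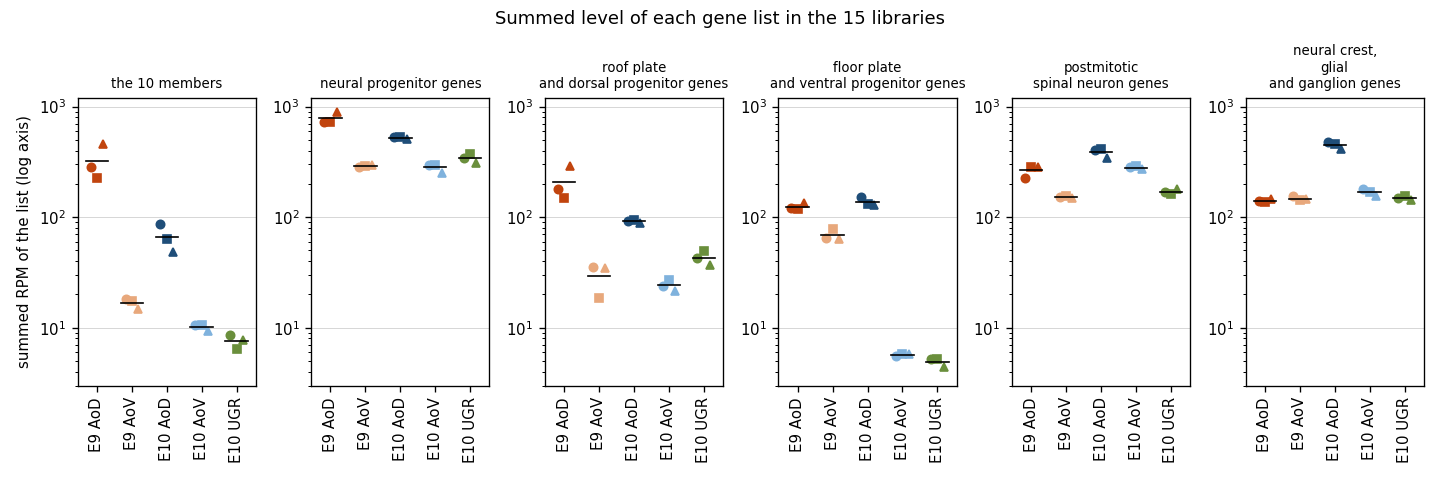
Summed RPM of the 10 genes and of 5 lists of neural genes in each library, on a log axis shared in range by the 6 panels, with the 5 groups on the horizontal axis and a bar at each group mean. The 10 genes summed to 226.8 to 460 RPM in E9 AoD and 48.56 to 85.83 RPM in E10 AoD, and the postmitotic neuron list to 226.9 to 286.8 and 344.3 to 412.5 RPM in the same groups. A sum follows its most abundant genes, such as Tubb3 with means of 60.4 and 124 RPM, and 10 of the 24 tested genes of that list were called lower.

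Genes with the most similar levels over the 15 libraries were led by a neural factor. The mean standardized log2 profile of the 10 genes correlated best with Prdm8 (Pearson r = 0.993, n = 15 libraries), then Unc5a (0.983), Pou3f4 (0.978), Neurog1 (0.977) and Sox3 (0.976), followed by Wasf3, Camkv, Pou4f1, Igfbpl1 and Ric3 (0.974 to 0.975). Prdm8, a PR-domain repressor, had 21.8 ± 6.91 RPM in E9 AoD, 1.70 ± 0.582 RPM in E10 AoD and under 0.5 RPM on average elsewhere. Taken singly, Zic1 was closest to Zic4 (0.99), its neighbour and paralog, Msx3 to Prdm13 (0.984), Neurod4 to Btbd17 (0.987), Neurog2 to Prdm8 (0.986), Scrt2 to Brsk2 (0.982) and Hes3 to Gbx2 (0.973). Olig2 and Sox1 were closest to Sox3 (0.984 and 0.988), Sox2 to Unc5a (0.985) and Pax6 to Zmynd19 (0.988). Among the 10 genes themselves r ran from 0.427 to 0.989 over 45 pairs. The points of each correlation share the same libraries and their 5 groups.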

How the data were processed

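RNA was extracted from pooled subdissected tissue, and libraries were made with a TruSeq kit and sequenced as single-end reads. According to the study's methods, the authors aligned reads to NCBIM37/mm9 with TopHat and Bowtie (0.12.3) and counted them per Ensembl gene in GeneProf, sharing multimapping reads among genes. The deposited table gives RPM per gene and library, made by the authors without correction for length. Its 12 columns of the authors' DESeq comparisons hold fold changes and adjusted p-values and were not used. Low RPM values gave the depth, but 64.5% to 67.8% of them were whole multiples of a read within 0.03 of a read, so reads were not recovered and no count test was run.

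Genes that reached 0.5 RPM in 1 or more of 15 libraries (18553) were fitted on log2(RPM + 0.1) with limma 3.58.1 (R 4.3.3), with 1 mean per group and a moderated, trended variance. A gene was called at a Benjamini-Hochberg adjusted p below 0.05 and an absolute log2 fold change of at least 1. Fold changes are on the log2(RPM + 0.1) scale, which understates those of low genes. Ratios are of group means of RPM. Where no library of the lower group held over 3 reads they are lower bounds, computed with the largest value of 3 reads among its libraries. The fit was tested on simulated data. The replicates are separate pools, and p-values measure the spread between pools.

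Members and gene lists were chosen with earlier results of these data known. All 10 members are named, with up to 3 genes per list of largest change among those called in E9 AoD over E9 AoV without overlap, up to 2 by the same rule in E10 AoD over E10 AoV, and the genes most alike in pattern. Otx2, and Pecam1, Cdh5, Kdr, Pax2, Wt1 and Osr1 as examples of lists, were named after their values were seen. 1 gene that this rule names is not reported here. Of 149 list genes 147 are in the table. Same-numbered libraries of E9 AoD and E9 AoV deviated together (r of deviations 0.579, 0.439 and 0.25), so the numbers were taken to pair them, and a replicate block changed none of the calls of the 10 genes. Alternatives were other pseudocounts, filters, scalings, weights and variance models, the replicate block, fits of only the groups compared, and leaving out each library.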

Additional observations from a re-analysis of the deposited data

Results flagged for a closer look

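For 9 of the 10 genes the change with stage differed between ventral and dorsal tissue, by a test of the difference itself (limma interaction, adjusted p below 0.05 over 18553 genes). The ventral change minus the dorsal change, on the log2(RPM + 0.1) scale, was 4.86 for Msx3, 4.10 for Hes3, 2.81 for Pax6, 2.48 for Sox1, 2.28 for Neurog2, 1.93 for Olig2, 1.85 for Scrt2, 1.79 for Sox2 and 1.55 for Neurod4. In each but Scrt2 both tissues had a lower value at the later stage, and on this scale the dorsal change was the larger. The ventral fall was not called for Msx3, Neurod4 and Sox2 (limma adjusted p = 0.196, 0.129 and 0.167). Scrt2 had a dorsal change of -1.22 and an uncalled ventral change of 0.62. For all of these genes but Sox2, a ventral fall to no reads would still have been smaller on this scale than the dorsal fall. The sign was thus fixed by the low ventral start. On ratios of means Sox1 fell 23.6-fold dorsally and at least 4.20-fold ventrally, and Msx3 at least 87.7-fold and at least 2.0-fold. These bounds do not order the tissues. Sizes depend on the added 0.1 RPM where libraries held 3 reads or fewer, all 3 of a group for Msx3, Hes3 and Sox1 and 2 of 3 for Olig2 and Neurog2 (E10 AoV) and Scrt2 (E9 AoV). Over 24 alternatives the value ran from 2.55 to 5.83 for Msx3, from 1.199 to 3.17 for Olig2, from 1.67 to 2.91 for Neurog2 and from 1.13 to 2.45 for Scrt2. The Olig2 call was lost with 0.03 RPM added (adjusted p = 0.136), and Neurod4 kept its call in 16 of 24 alternatives.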

How the results depend on the processing

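Over all alternatives and all fold changes of the 10 genes and the named list genes, 2043 values kept their direction and side of the threshold, 29 lost the call, 20 gained it and 2 reversed. The 2 that reversed were the uncalled E10 AoV over E9 AoV change of Zic1 (-0.07), which ran from -0.22 to 0.21 when single libraries were left out, turning positive without E9 AoV replicate 2 or E10 AoV replicate 1. The counts of 10, 8, 9 and 7 of the 10 genes (E9 AoD over E9 AoV, E10 AoD over E10 AoV, E10 AoD below E9 AoD, E10 AoD over E10 UGR) stayed within 1.5 times under every alternative run. With 1 RPM added, 1 gene was lower in E10 AoV than E9 AoV and 0 were lower in E10 AoV than E10 UGR. Genes higher in E10 AoV than E10 UGR numbered 1 with 0.03 RPM added, 1 with median ratio scaling and 2 without the fold threshold, and 1 gene was lower in E10 AoD than E10 AoV with 0.03 RPM added or without the fold threshold. Leaving out single libraries gave 0 to 1 gene higher in E10 AoV than E9 AoV (Scrt2), 0 to 1 lower in E10 AoD than E10 AoV (Hes3) and 0 to 1 higher in E10 AoV than E10 UGR (Hes3).

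With 1 RPM added, lists in E9 AoD over E9 AoV had 4 ventral progenitor, 4 crest and ganglion, and 3 caudal progenitor genes higher. In E10 AoD over E10 AoV, 2 postmitotic neuron, 1 forebrain and midbrain and 0 caudal progenitor genes were lower. In E10 AoD over E9 AoD, 0 neural progenitor and 0 urogenital genes were higher, and 1 forebrain and midbrain, 0 crest and ganglion, and 0 somite genes were lower. Over all genes, 1 RPM added left 360 higher and 836 lower in E9 AoD over E9 AoV, 448 and 572 in E10 AoD over E10 AoV and 878 and 403 in E10 AoD over E9 AoD, against 643 and 1544, 796 and 1078, and 1595 and 742. Dropping the fold threshold gave 3738 and 5108, 2831 and 3756, and 5560 and 5170. The construction of these alternatives, a larger constant or a weaker rule, changes such counts.

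The replicate block gave the same 10, 8, 9, 5, 7, 3 and 9 called genes in the 6 comparisons and the interaction, and in a fit of only the samples compared, a choice made after seeing the data. Deviations of same-numbered libraries correlated between -0.245 and 0.579 over 30 pairs, 14 of them over 0.1. Depth limits statements on Msx3, Hes3 and Sox1 in the E10.5 groups in which every library held 3 reads or fewer, and ratios for Olig2 and Neurog2 in E10 AoV and Scrt2 in E9 AoV, where 2 of 3 libraries did.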
